A study of Mus musculus with 6 samples.

Results

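The genes described here are 10 that serve or mark the housekeeping work of astrocytes, glial cells that keep the surroundings of neurons stable. They are the glutamate carriers Slc1a2 and Slc1a3, glutamine synthetase (Glul), the water channel Aqp4, the secreted carriers Apoe and Clu, the glycolytic enzyme Aldoc, and Ndrg2, S100b and Sox9. They were chosen by name, with earlier results of these data known. Counts and medians of the 10 genes set against other genes are therefore descriptions and not tests. Each gene was read on the probe set with its single symbol and the highest mean over the 6 arrays. All 10 were measured, out of 19937 named genes, and 9 of them had 1 probe set.

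Astrocytes clear glutamate from around synapses through carriers in their membrane and turn it into glutamine, which neurons take back. They move water through aquaporins, supply other cells with cholesterol on lipoprotein particles, and run glycolysis. Several of these genes are already active in the radial glia-like stem cells of the hippocampus, so in neurospheres they mark astrocytes and precursor cells alike.

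RNA came from primary neurospheres, colonies grown in suspension from dissociated hippocampus of male C57BL/6J mice aged 8 to 12 weeks. All cultures received EGF and bFGF, the growth factors that keep precursors dividing, and all were harvested on day 14. The 3 norepinephrine samples had 10 µM norepinephrine in the medium, and the 3 KCl samples had 15 mM KCl. Each sample was run on 1 array. Every sample title calls the neurospheres big, so the values describe large spheres and not all spheres of a culture. The samples are labelled biological replicates, and nothing further is said of the animals or cultures behind them, and every p-value here reflects only how much these samples vary, which may be technical. No untreated culture was analysed here, so each difference is norepinephrine minus KCl and has no baseline. All levels are deposited log2 expression values, and all differences are differences of these, so that 1 unit is a doubling. Levels of different genes are not set against each other, because probe sets differ in how brightly they report.

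With norepinephrine, 9 of the 10 genes read higher than with KCl, against 38% of the 21640 named probe sets (49.1% after cyclic loess normalization between arrays). The median difference of the 10 was 0.82, against -0.075 over all named probe sets. On 7 genes every norepinephrine array read above every KCl array, a pattern that 4.36% of named probe sets shared. Ndrg2, Apoe, Aqp4, Aldoc and Clu differed by more than 2-fold, Slc1a2, Slc1a3 and Glul by 1.30 to 1.52-fold and Sox9 by 1.20-fold, while S100b read 1.22-fold lower. By limma with Benjamini-Hochberg adjustment over all named probe sets, none of the 10 passed, and neither did any other probe set (0%, lowest adjusted p = 0.662). At an unadjusted p under 0.05 stood 6 of the 10, all higher with norepinephrine, as did 2.2% of named probe sets in that direction. In bulk RNA, fewer cells of a type and less RNA per cell cannot be told apart.

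**Figure D1:**
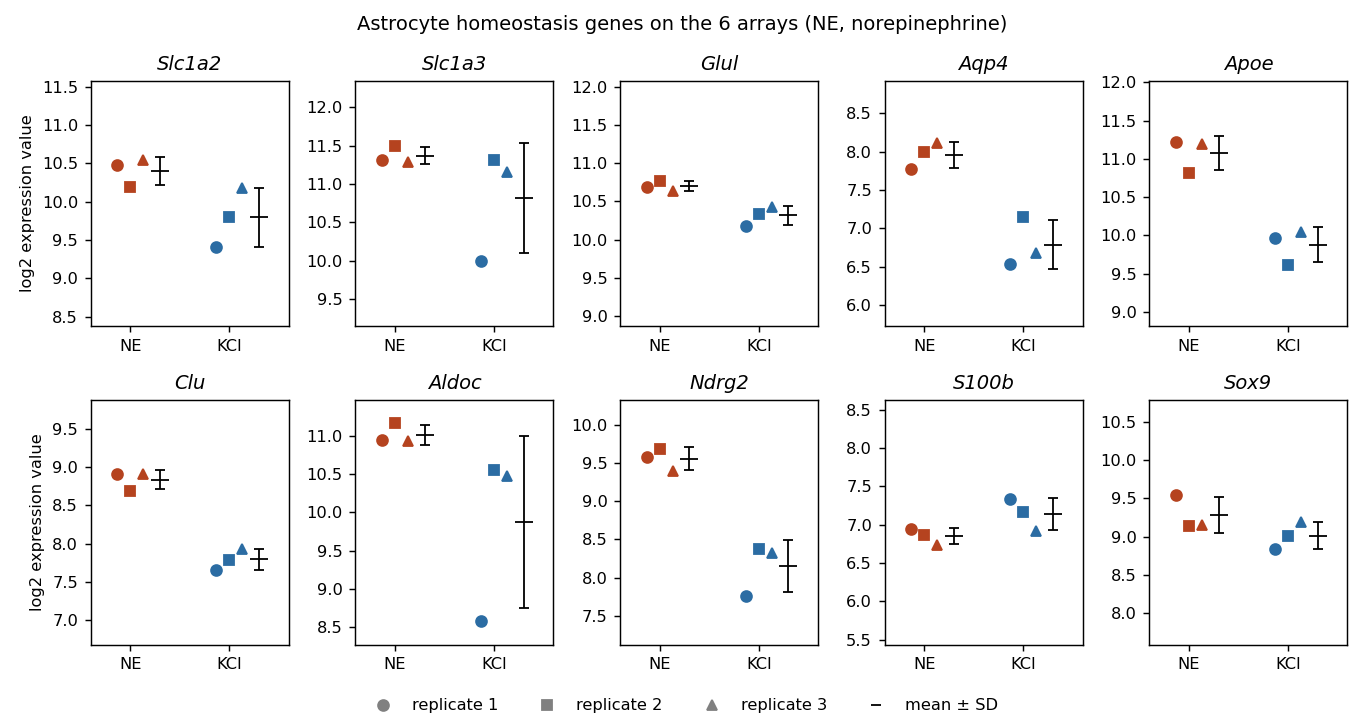
Log2 expression value of each of the 10 genes on the 6 arrays, with norepinephrine (NE) at the left and KCl at the right of each panel; marker shapes give the replicate and the black bar the mean ± SD (n = 3). Each vertical axis spans the same number of log2 units, so distances compare between panels. Ndrg2, Apoe, Aqp4 and Clu show 2 separate groups, whereas on Slc1a3 and Aldoc KCl replicate 1 lies far below the other arrays.

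KCl replicate 1 had a narrower spread of values, with a standard deviation over named probe sets of 1.38 where the other arrays had 1.62 to 1.78. It read low for bright and high for dim probe sets. Relative to the mean of KCl replicates 2 and 3 its median deviation was 0.53 in the dimmest quartile of named probe sets and -0.53 in the brightest. Of the 10 genes 8 lay in that brightest quartile, where the median difference between treatments was 0.15 and 70.4% of probe sets read higher with norepinephrine. Every norepinephrine array read above every KCl array on 9.45% of the probe sets of that quartile, and on 0.684% of those of the dimmest. KCl replicate 1 gave the lowest reading of 8 of the 10 genes, against 25.1% of all named probe sets. Values without that array are therefore given beside the results. On the other 5 arrays, 9 of 10 genes again read higher with norepinephrine (background 52.2%), the median was 0.45, 5 had an unadjusted p under 0.05, all higher with norepinephrine (background 2.38%), and 7 did not overlap (background 8.13%). Of the 4 probe sets that passed adjustment on those 5 arrays (0.0185%), none belonged to these genes.

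**Figure D2:**
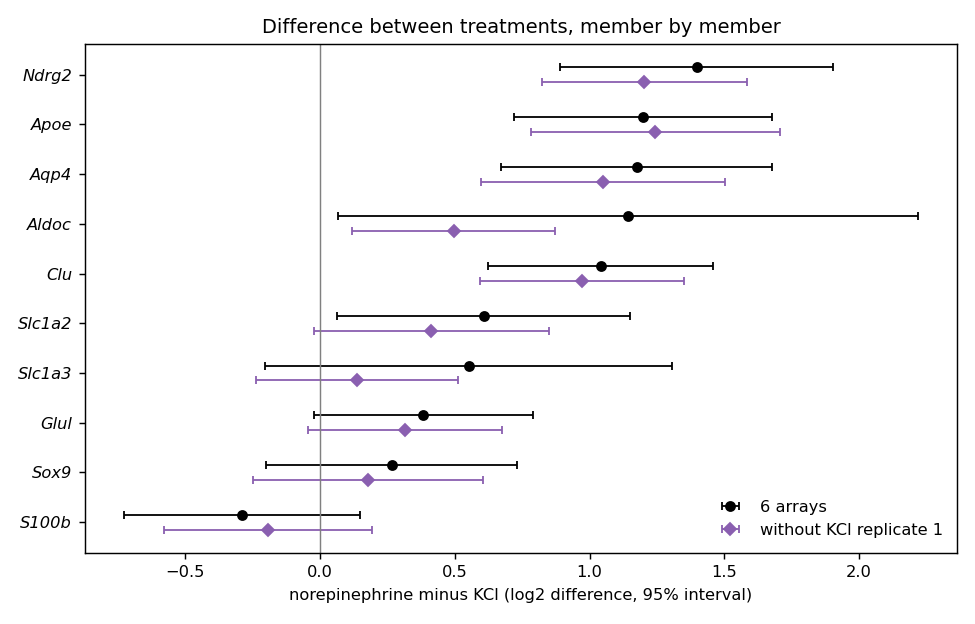
Norepinephrine minus KCl on the log2 scale for each gene, ordered by size, with unadjusted 95% intervals from limma; circles use all 6 arrays and diamonds leave out KCl replicate 1. Leaving out that array moves Aldoc from 1.14 to 0.50 and Slc1a3 from 0.55 to 0.14, while Apoe moves from 1.20 to 1.24.

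The promoters of 7 of the 10 genes were matched by symbol in the RefSeq table of assembly GRCm38.p6. They are those of Aldoc, Apoe, Glul, Ndrg2, S100b, Slc1a2 and Slc1a3. The 250 bases before the most upstream start are shown for Ndrg2 and Apoe, the 2 genes with the largest differences, for Aldoc, and for S100b, the gene that read lower with norepinephrine. Capitals mark every match, on either strand, to the motifs listed after the sequences.
Ndrg2, chr14:51914005-51914254, minus strand: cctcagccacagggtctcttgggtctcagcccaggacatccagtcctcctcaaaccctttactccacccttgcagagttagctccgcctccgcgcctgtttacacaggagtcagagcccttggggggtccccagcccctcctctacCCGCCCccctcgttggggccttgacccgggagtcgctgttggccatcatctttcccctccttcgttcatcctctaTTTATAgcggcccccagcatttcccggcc
Apoe, chr7:19699189-19699438, minus strand: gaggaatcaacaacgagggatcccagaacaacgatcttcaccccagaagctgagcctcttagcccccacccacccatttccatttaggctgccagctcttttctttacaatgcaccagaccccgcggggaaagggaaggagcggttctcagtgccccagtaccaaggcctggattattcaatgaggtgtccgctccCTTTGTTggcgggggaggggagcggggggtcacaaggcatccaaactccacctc
Aldoc, chr11:78322823-78323072, plus strand: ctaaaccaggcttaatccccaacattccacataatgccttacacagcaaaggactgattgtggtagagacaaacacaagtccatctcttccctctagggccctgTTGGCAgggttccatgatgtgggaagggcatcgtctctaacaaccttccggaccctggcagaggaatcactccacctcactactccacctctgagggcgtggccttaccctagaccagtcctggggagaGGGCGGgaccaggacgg
S100b, chr10:76253586-76253835, plus strand: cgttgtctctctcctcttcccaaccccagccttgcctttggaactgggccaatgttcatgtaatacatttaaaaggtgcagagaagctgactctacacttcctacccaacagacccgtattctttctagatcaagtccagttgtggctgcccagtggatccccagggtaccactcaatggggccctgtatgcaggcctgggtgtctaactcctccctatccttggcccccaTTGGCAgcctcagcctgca

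The motifs searched were the cAMP response element TGACGTCA and its core TGACG, the SOX motifs AACAAT and AACAAAG, the NFI palindrome (TTGGC and GCCAA with a spacer) and TTGGCA, the STAT motif TTCCNGGAA, the Sp1 box GGGCGG and the TATA box TATAAA. The core TGACG lies inside TGACGTCA. The whole cAMP response element was in 0 of the 7 windows and in 1.6% of 27025 promoter windows of the same length, and its core was in that of Slc1a3, against 17.8%. The window of Apoe held AACAAAG on the opposite strand, 54 to 48 bases before the start, which 4.97% of windows contain. TTGGCA stood in the windows of Aldoc and S100b (12.5% of windows), GGGCGG in those of Aldoc, Glul, Ndrg2 and Slc1a3 (33%), and TATAAA in those of Ndrg2 and Slc1a3 (13%). AACAAT, the NFI palindrome and the STAT motif were in 0 of the 7, and in 9.62%, 0.0407% and 0.918% of all windows. Among the 7 genes searched, those that read higher with norepinephrine thus had no motif of this search in common. The window of Slc1a2 held none of the motifs, and Aqp4, Clu and Sox9 were not searched. A match is a description of letters, not of a bound site.

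Apoe and Clu encode the main apolipoproteins that astrocytes secrete. Apolipoprotein E carries cholesterol and phospholipids between brain cells, and clusterin binds lipids and misfolded proteins outside the cell. Apoe (probe set 10560624) read 11.21, 10.82 and 11.19 on norepinephrine replicates 1 to 3 and 9.97, 9.62 and 10.05 on KCl replicates 1 to 3. The groups lay wide apart, and within each of them replicate 2 was the lowest. The difference was 1.20 ± 0.21 (SE, n = 3 per group), a 2.29-fold difference, with an adjusted p of 0.80 by limma. KCl replicate 1 lay 0.14 above the mean of the other KCl arrays on this gene, unlike the brightest quartile as a whole, and without it the difference was 1.24.

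Clu (probe set 10416057) read 8.91, 8.69 and 8.91 with norepinephrine and 7.66, 7.79 and 7.93 with KCl. Its groups were tight and well apart, with SDs of 0.12 and 0.14. The difference was 1.04 ± 0.18, or 2.06-fold (adjusted p = 0.80 by limma), and 0.97 without KCl replicate 1.

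Aqp4 encodes the water channel that astrocytes concentrate in the endfeet around blood vessels. It read 7.77, 8.00 and 8.11 with norepinephrine against 6.54, 7.15 and 6.67 with KCl on probe set 10457614. KCl replicate 2 was the highest of its group and still lay below all norepinephrine arrays. The difference was 1.17 ± 0.22, or 2.26-fold (adjusted p = 0.80 by limma), and 1.05 without KCl replicate 1.

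Ndrg2, a member of the N-myc downstream regulated family that is strongly expressed in astrocytes, had the largest difference of the 10 genes and ranked 37 of 21640 named probe sets toward norepinephrine. Its probe set, 10419578, read 9.58, 9.69 and 9.40 with norepinephrine and 7.77, 8.38 and 8.33 with KCl. KCl replicate 1 was the lowest by 0.59 below the mean of the other KCl arrays, close to the median deviation of the brightest quartile. The difference was 1.40 ± 0.22, or 2.64-fold (adjusted p = 0.77 by limma). Without KCl replicate 1 it was 1.20, and its adjusted p of 0.0977 was the lowest among the 10 genes on those 5 arrays.

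Ndrg2, Apoe, Aqp4 and Clu thus differed by about 1 log2 unit or more whichever array was left out, from 0.97 at the least for Clu to 1.51 at the most for Ndrg2. With 3 arrays a group, the smallest two-sided p that an exact permutation test can give is 0.1, which these 4 genes reach by their lack of overlap, as do Slc1a2, Glul and Aldoc.

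The 3 genes of glutamate uptake and conversion differed less. Slc1a2 encodes GLT-1, which carries most of the glutamate uptake of the adult forebrain. On probe set 10474141 it read 10.48, 10.195 and 10.54 with norepinephrine and 9.41, 9.80 and 10.186 with KCl. The groups came close to touching, with norepinephrine replicate 2 just above KCl replicate 3. The difference was 0.61 ± 0.24 (adjusted p = 0.94 by limma), and 0.41 without KCl replicate 1, where it no longer had an unadjusted p under 0.05.

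Slc1a3 encodes GLAST, the glutamate carrier of radial glia and of young astrocytes. It read 11.32, 11.50 and 11.29 with norepinephrine against 9.99, 11.31 and 11.16 with KCl on probe set 10427590. KCl replicates 2 and 3 lay within 0.2 of the lowest norepinephrine array and replicate 2 above it, so the groups overlapped. KCl replicate 1 was 1.24 below the mean of those 2 arrays. The difference was 0.55 ± 0.33 (adjusted p = 0.94 by limma, 95% interval -0.20 to 1.31), and 0.14 without KCl replicate 1 (95% interval -0.24 to 0.51).

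Glul encodes glutamine synthetase, which joins glutamate with ammonia inside astrocytes. Its brighter probe set, 10350753, read 10.69, 10.77 and 10.64 with norepinephrine and 10.18, 10.34 and 10.43 with KCl. The arrays of each group lay close together and the groups did not overlap. The difference was 0.38 ± 0.18 (adjusted p = 0.94 by limma), and 0.32 without KCl replicate 1. It was 0.18 after cyclic loess and 0.21 after a further quantile normalization. The other Glul probe set, 10374453, read 8.07, 8.40 and 7.97 against 7.75, 8.06 and 7.85, with overlapping groups and a difference of 0.26 ± 0.20.

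Aldoc encodes the aldolase isoform of the brain, a glycolytic enzyme. On probe set 10379153 it read 10.94, 11.17 and 10.94 with norepinephrine and 8.58, 10.56 and 10.48 with KCl. KCl replicates 2 and 3 were below every norepinephrine array, and KCl replicate 1 was lower still, 1.94 below their mean. The difference of 1.14 ± 0.47 (adjusted p = 0.94 by limma) was 0.50 ± 0.17 without KCl replicate 1 (adjusted p = 0.87 by limma). Of the 10 genes Aldoc and Slc1a3 had the widest KCl groups, with SDs of 1.12 and 0.72 against 0.13 to 0.39 for the others.

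S100b encodes a calcium-binding protein that astrocytes hold in the cytoplasm and secrete. It was the gene of the 10 that read lower with norepinephrine. Its probe set, 10364149, read 6.95, 6.87 and 6.74 with norepinephrine and 7.33, 7.17 and 6.92 with KCl, and the groups overlapped. The difference was -0.29 ± 0.19 (adjusted p = 0.94 by limma, 95% interval -0.73 to 0.15), and -0.19 without KCl replicate 1. This probe set was the dimmest of the 10, in the second quartile of brightness, where the median difference was -0.14 on 6 arrays and 0.020 without KCl replicate 1.

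Sox9 encodes the transcription factor that promotes gliogenesis and stays on in astrocytes and in adult neural stem cells. It read 9.55, 9.14 and 9.16 with norepinephrine against 8.84, 9.01 and 9.19 with KCl on probe set 10382328. KCl replicate 3 lay above norepinephrine replicates 2 and 3. The difference was 0.27 ± 0.20 (adjusted p = 0.94 by limma, 95% interval -0.20 to 0.73), and 0.18 without KCl replicate 1. It was 0.12 after cyclic loess and 0.10 after a further quantile normalization.

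**Figure D3:**
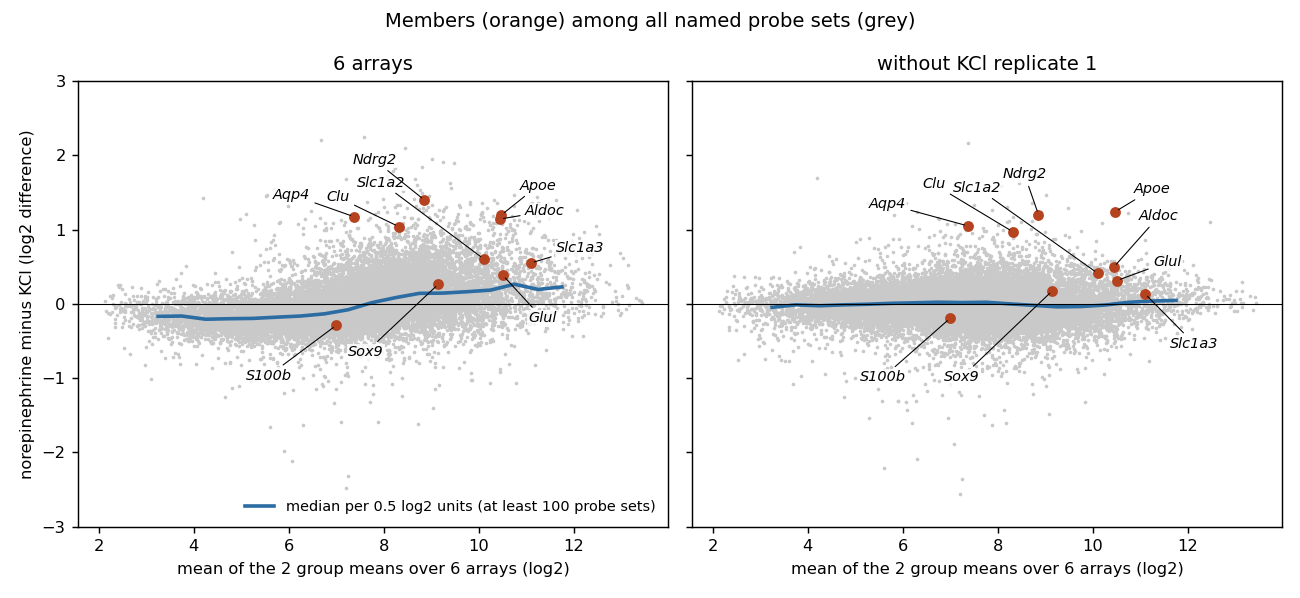
Norepinephrine minus KCl (log2 difference) against mean brightness (log2) for all named probe sets (grey) and the 10 genes (orange), on 6 arrays at the left and without KCl replicate 1 at the right; the blue line is the median of all named probe sets by brightness. The line climbs with brightness at the left and is flat at the right, and Ndrg2, Apoe, Aqp4 and Clu lie above it in both panels.

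The nearest relatives of these genes, other than those of Apoe, Clu and Glul, were read next. Of 36 measured paralogs, 16 read higher with norepinephrine (25 after cyclic loess, 28 without KCl replicate 1), and 0 passed the adjusted test. Of the 11 measured aquaporins other than Aqp4, Aqp11, an aquaporin of intracellular membranes, stood at 0.93 ± 0.33, or 0.58 without KCl replicate 1, with overlapping groups. The other 10 lay between -0.31 and 0.05, and 9 of all 11 read higher without KCl replicate 1, against 2 on 6 arrays. The 5 other SLC1 carriers lay between -0.22 for Slc1a7 and 0.16 for the neuronal glutamate carrier Slc1a1. Without KCl replicate 1, Slc1a7 stood at 0.030 and Slc1a1 at 0.13. Aldoa, the aldolase of most tissues, stood at 0.49 ± 0.43, and at -0.0038 without KCl replicate 1. Ndrg3 stood at 0.32 ± 0.20, Ndrg1 at -0.051 and Ndrg4 at -0.084, or 0.18, 0.10 and -0.042 without that array. Sox8 and Sox10, which share the SOXE group with Sox9, stood at 0.037 and 0.20, or 0.045 and 0.45 without it.

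Among 14 other S100 genes 7 read higher with norepinephrine (11 without KCl replicate 1), and 3 had an unadjusted p under 0.05. S100a1, whose protein binds calcium and can pair with S100B, read 8.41, 8.17 and 8.65 with norepinephrine and 7.17, 7.55 and 7.55 with KCl, a difference of 0.98 ± 0.21. S100a6 read 7.63, 7.08 and 7.26 against 6.62, 6.59 and 6.21, a difference of 0.85 ± 0.22. S100a16 differed by 0.66 ± 0.20. None of the 3 had overlapping groups, and their differences were 0.86, 0.92 and 0.67 without KCl replicate 1. S100a1, S100a6 and S100a16 therefore read higher on all norepinephrine arrays, while S100b did not, and the difference between S100b and these relatives was not tested.

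**Figure D4:**
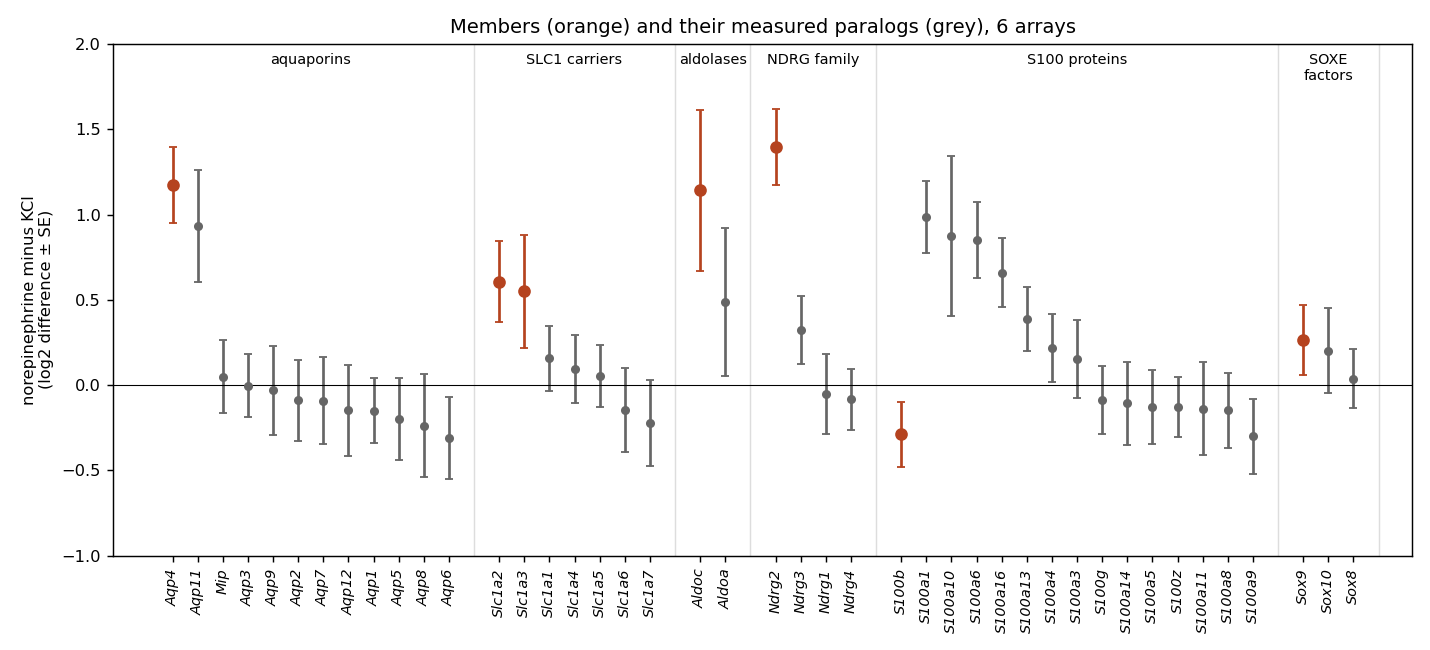
Norepinephrine minus KCl (log2 difference ± SE, 6 arrays) for Aqp4, Slc1a2, Slc1a3, Aldoc, Ndrg2, S100b and Sox9 (orange) and their 36 measured paralogs (grey), grouped by family. Apoe, Clu and Glul are not drawn. Aqp4 and Ndrg2 stand at 1.17 and 1.40 with most of their relatives near 0, and among S100 genes several relatives of S100b stand above it, S100a1 at 0.98.

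Further genes of the same tasks were counted in lists chosen by role. No gene of these lists passed the adjusted test, and the counts below use an unadjusted limma p under 0.05 (2.2% of named probe sets in the direction of norepinephrine). For glutamate and glutamine handling, 12 of 15 measured genes read higher with norepinephrine (9 without KCl replicate 1), with a median of 0.16, and 1 was counted. It was glutamate dehydrogenase, Glud1, at 0.89 ± 0.38 with overlapping groups. Without KCl replicate 1 it stood at 0.49 and no longer had an unadjusted limma p under 0.05. Slc7a11, not counted on 6 arrays, stood at 1.45 ± 0.69 with groups that did not overlap, and KCl replicate 1 read lowest at 6.24. Without that array Slc7a11 stood at 0.46 with an unadjusted limma p under 0.05, and did not pass adjustment. For water and ion handling, 7 of 16 read higher, the median was -0.044 and 2 were counted. Without KCl replicate 1, 9 of 16 read higher and the median turned to 0.034. The 2 counted on 6 arrays were Atp1b2, a beta subunit of the sodium-potassium pump, at 0.69 ± 0.23, and Gja1, the gap junction protein connexin 43, at 0.73 ± 0.28, or 0.58 and 0.40 without KCl replicate 1. Kcnj10, the potassium channel that lies beside Aqp4 in endfeet, stood at 0.24 ± 0.26, and at 0.047 without that array. The potassium channel subunit Kcnj16 and the cation-chloride cotransporter Slc12a2 stood at -0.16 ± 0.39 and -0.25 ± 0.34. Without KCl replicate 1 they stood at -0.66 and -0.60 and had an unadjusted limma p under 0.05, and neither passed adjustment.

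For lipid carriage, 11 of 18 genes read higher, with a median of 0.11, or 10 of 18 and 0.031 without KCl replicate 1. Lcat, which esterifies cholesterol on lipoprotein particles, was counted at 0.65 ± 0.29, or 0.35 without KCl replicate 1. The cholesterol exporter Abca1 stood at 0.39 ± 0.29 and the apolipoprotein E receptor Lrp1 at -0.013 ± 0.21, or 0.070 and -0.15 without that array.

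Of 28 genes of astrocyte metabolism 14 read higher (17 without KCl replicate 1), with a median of 0.036 (0.043), and 4 were counted, all higher with norepinephrine. The metallothionein Mt2 read 10.86, 10.20 and 11.02 against 9.86, 9.29 and 9.93, a difference of 1.00 ± 0.28. As with Apoe, replicate 2 was the lowest array of each group. The glutathione transferase Gstm1 stood at 0.59 ± 0.19, the brain glycogen phosphorylase Pygb at 0.55 ± 0.19 and cystathionine beta-synthase, Cbs, at 0.58 ± 0.19. Without KCl replicate 1 these 4 stood at 1.09, 0.66, 0.46 and 0.57. Aldh1l1, a folate enzyme often used to mark astrocytes, stood at 0.40 ± 0.26, and at 0.20 without that array.

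Of 21 glial transcription factors and their partners 13 read higher (14 without KCl replicate 1), with a median of 0.095 (0.11). Hopx, a homeodomain protein of quiescent hippocampal stem cells, and Id3 were counted, at 0.87 ± 0.26 and 0.76 ± 0.24, and stood at 0.70 each without that array. Nfia, which acts with Sox9 in gliogenesis, stood at 0.095 ± 0.24, and at -0.13 without it. The median over each of these 5 role lists stayed between -0.044 and 0.16, against 0.82 for the 10 genes, and between 0.031 and 0.11 against 0.45 without KCl replicate 1.

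The labelled cell type and the other cells of the hippocampus were checked by marker lists. All 7 measured neural precursor markers, among them Sox2, Nes and Vim, were brighter than the median named probe set. For this list 4 of 7 read higher with norepinephrine, with and without KCl replicate 1. Its mean was 10.17 to 10.22 on norepinephrine arrays and 9.75 to 10.23 on KCl arrays. Nes stood at -0.096 ± 0.37 on 6 arrays. Without KCl replicate 1 Nes stood at -0.58 with an unadjusted limma p under 0.05, and did not pass adjustment. Of the 8 microglial markers 1 was above the median brightness and all 8 read higher with KCl (4 without KCl replicate 1), with list means of 5.95 to 6.14 against 5.96 to 6.74, the highest being KCl replicate 1. Endothelial and pericyte markers had none of their 7 genes each above the median brightness, and 0 of 7 and 1 of 7 read higher with norepinephrine (3 and 6 without KCl replicate 1). The endothelial list mean was 5.88 to 6.06 against 5.85 to 6.51, and the pericyte one 6.01 to 6.25 against 5.89 to 6.75. Ependymal cells, which also make Aqp4, Clu and S100b, had 2 of 7 markers higher with norepinephrine and list means of 6.18 to 6.27 against 6.01 to 6.58. Without KCl replicate 1 it was 5 of 7, and the list median turned from -0.071 to 0.12. Their defining factor Foxj1 stood at 0.0039 ± 0.22, and at 0.12 without that array.

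Neuronal markers were higher with norepinephrine in 5 of 8 genes, with list means of 7.62 to 7.87 against 7.53 to 7.65, and in 6 of 8 without KCl replicate 1. Snap25 and Tubb3 stood at 1.03 ± 0.27 and 0.47 ± 0.18, or 0.90 and 0.44 without that array. Map2 and Gad1 went the other way, at -0.33 ± 0.18 and -0.19 ± 0.18 (-0.40 and -0.22 without it), with every KCl array above every norepinephrine array. Oligodendrocyte markers were higher in 2 of 6 (3 without KCl replicate 1), at 7.00 to 7.10 against 6.90 to 7.38. For oligodendrocyte precursors it was 4 of 6 with and without that array, at 8.67 to 8.80 against 8.40 to 8.55. Pdgfra and Gpr17 stood at 0.66 ± 0.24 and 0.70 ± 0.25 (0.57 and 0.89 without it), while the lineage factors Olig2 and Olig1 stood at -0.18 ± 0.18 and -0.11 ± 0.26 (-0.20 and -0.29 without it). The part of other cell types in the differences of the 10 genes was not tested.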

How the data were processed

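RNA from 6 neurosphere samples was measured on whole-transcript arrays, 1 per sample. Each probe set has a deposited log2 value. Partek and RMA, which corrects background, normalizes quantiles and summarizes probes, are listed in the submitters' processing notes. Their versions and settings, and the platform's genome build, are not given in the sources here. The deposited values of the 6 arrays do not share 1 distribution, with standard deviations over named probe sets of 1.38 to 1.78. Without scanner files no probe set could be called undetected. The platform table gave 1 symbol to 21640 of 34760 probe sets, several to 1321 and none to 11799. Treatments were taken from the sample titles.

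The 10 genes and the gene lists were chosen with earlier results of these data known. The 21640 named probe sets were fitted in R 4.3.3 with the lmFit and eBayes steps of limma 3.58.1 (no covariate, two-sided, Benjamini-Hochberg, adjusted threshold 0.05), checked on simulated data. Standard errors and 95% intervals are moderated and unadjusted. A gene with several probe sets was read on its brightest. Beyond the 10 genes, list members at an unadjusted p under 0.05, the paralogs, and the 5 genes most like the mean profile of the 10 were named. Slc7a11, Kcnj10, Kcnj16, Slc12a2, Aldh1l1, Abca1, Lrp1, Nfia, Foxj1 and the named cell type markers were added after their values were seen. Alternatives were 3 between-array normalizations, 2 brightness filters, trended and robust moderation, a replicate block, array weights, averaged probe sets and leaving out each array. The number of arrays limits the precision.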

Additional observations from a re-analysis of the deposited data

How the results depend on the processing

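All 10 genes kept the direction of their difference in every alternative run. The count of genes higher with norepinephrine stayed at 9, while the share of all named probe sets ran from 36.7% to 59.2%. From 4 to 7 genes had an unadjusted limma p under 0.05, against 1.46% to 23.9% of named probe sets in either direction. Ndrg2, Aqp4, Apoe and Clu had one in all 15 alternatives, Slc1a2 and Aldoc in 9 each. The groups did not overlap on 6 genes after cyclic loess (6.12% of named probe sets with norepinephrine above) or further quantile normalization (5.15%). Otherwise it was 7 or 8 genes, against 4.36% to 13.7% of named probe sets. With 1 array left out, the median of the 10 genes ranged from 0.45 (without KCl replicate 1) to 0.96, and the number of named probe sets past the adjusted threshold from 0 to 4. The number at an unadjusted p under 0.05 was 743 on 6 arrays, 317 to 3532 with 1 array left out (the most without KCl replicate 2), and 1158 after cyclic loess. Aldoa, at 0.49 on 6 arrays, ranged from -0.0038 (without KCl replicate 1) to 0.91 with 1 array left out.

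Equal replicate numbers were not taken as pairs, since the labels name nothing shared. The deviations of same-numbered arrays correlated at 0.30, 0.63 and 0.085, and those of different-numbered arrays at -0.47 to 0.31. Whether arrays of equal number share an animal or culture was not tested. With the replicate number as a block the median of the 10 genes was 0.82, 6 had an unadjusted p under 0.05 and 0 passed adjustment, while 1436 named probe sets had an unadjusted p under 0.05.

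Array weights by the planned method did not converge, giving KCl replicate 3 a weight of 673, and were left out. Gene-by-gene weights, chosen after seeing the data, gave that array 6.76 and KCl replicate 1 0.158. With them the median was 0.42, and 1454 of all 21640 named probe sets passed, among them Ndrg2, Aqp4, Apoe and Clu. These counts rest largely on 1 KCl array. S100b has no value with the median filter on brightness, which removes it.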

Other observations

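Among 13011 other genes above the 30th percentile of brightness, the 5 whose values were most like the mean centred profile of the 10 genes over the 6 arrays were Txn2, Slc25a39, Rarres2, Mpv17 and Scrn3. Their Pearson correlations were 0.991, 0.989, 0.986, 0.986 and 0.985, picked as the highest of many and given as a description, and 72 genes exceeded 0.95. With only 6 arrays in 2 groups, and KCl replicate 1 low, such a profile is matched by many genes. By Spearman's rho, 64 genes had the same order as the profile and 0 of the 5 were among them.

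Rarres2, which encodes the secreted chemoattractant chemerin, read 8.39, 8.31 and 8.46 with norepinephrine and 7.04, 7.56 and 7.46 with KCl. The difference was 1.035 ± 0.20, and 0.88 without KCl replicate 1. The mitochondrial thioredoxin Txn2 differed by 0.49 ± 0.20 and the mitochondrial inner membrane protein Mpv17 by 0.85 ± 0.24. Slc25a39, a mitochondrial carrier, differed by 0.36 ± 0.18 and Scrn3 by 0.63 ± 0.21. None of the 5 passed the adjusted limma test on 6 arrays.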
